A study of Homo sapiens with 10 samples.

Results

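Chaperones of the HSP70 and HSP110 families and the genes that work with them were described in clones of U2932, an established cell line of human diffuse large B cell lymphoma. The set holds 10 of the 21174 genes in the count table. HSPA4L was chosen by its higher level in the CREBBP+/- columns, and the other 9 were named by family and role: HSPA4, HSPH1, HSPA8, HSPA1A, HSPA1B, HSPA9, DNAJB1, HSP90AA1 and HSF1. The question was whether the other chaperones shared the higher level of HSPA4L. Since HSPA4L was selected on this contrast, its values are given as a description with no test.

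HSP70 proteins bind unfolded stretches of other proteins and release them as they bind and hydrolyse ATP. J-domain proteins such as DNAJB1 bring substrates and speed the hydrolysis, and HSP110 proteins, which are large relatives of HSP70, exchange the nucleotide so that the cycle can start again. HSP90 takes over clients such as kinases and hormone receptors at a later stage of folding. After heat or other stress that unfolds proteins, the transcription factor HSF1 forms trimers, binds heat shock elements in DNA and raises the transcription of many of these genes together. Tumour cells, lymphoma cells among them, often carry high levels of some of these chaperones without heat.

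RNA was sequenced from 5 clones labelled CREBBP+/- and 5 labelled CREBBP+/+, where CREBBP encodes a histone acetyltransferase and transcriptional coactivator. All 10 were U2932 cells kept in the same medium with heat-inactivated serum, and no heat or other stress treatment is named in the labels. The means by which the CREBBP allele was altered, the derivation of the clones and the separateness of their cultures are not stated in the sources used here. The p-values therefore measure only library-to-library spread, which may be technical. The CREBBP+/- columns are called Het_6 to Het_10, names that no labelled clone carries, and were used as members of their group. The CREBBP+/+ columns are WT_1 to WT_5.

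Library totals ran from 10615977 counts (Het_9) to 23020694 counts (Het_6). By overall expression the libraries were grouped into 3 clusters across the genotypes, a number that was set and not estimated. They were Het_6 and Het_7 with WT_3, WT_4 and WT_5, then Het_8 with WT_1 and WT_2, and last Het_9 with Het_10 and no CREBBP+/+ library. Levels are given in CPM, the counts scaled to a common library total with TMM factors for library composition. CREBBP itself averaged 69.6 ± 10.2 CPM in CREBBP+/- clones, against 115 ± 13.5 CPM in CREBBP+/+ clones (SD, n = 5 each), without overlap (log2 fold change -0.73, SE 0.12, edgeR quasi-likelihood test, adjusted p = 0.395). All 8 B cell markers were detected, with a sum of 2294 to 3754 CPM in CREBBP+/- clones, against 2245 to 3785 CPM in CREBBP+/+ clones. The T cell markers CD3D and CD2 had 0 counts throughout, and none of the 4 T cell, 3 NK cell, 3 erythroid or 3 stromal markers passed the filter on low counts. Of 4 myeloid markers 1 passed. The myeloid sum was 0.724 to 1.42 CPM in CREBBP+/- clones, against 0.370 to 1.36 CPM in CREBBP+/+ clones. The 3 epithelial markers summed to 13.7 to 26.7 CPM in CREBBP+/- clones, against 1.64 to 24.8 CPM in CREBBP+/+ clones, and their part in the results was not tested.

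The heat shock element that HSF1 binds is an array of inverted repeats of GAA, and its letters differ between these genes upstream of their starts. A search of the 250 bases before each RefSeq start (GRCh38.p14) looked for 3 alternating units, written GAANNTTCNNGAA or TTCNNGAANNTTC, and for 2 units, written GAANNTTC or TTCNNGAA. Each pair of patterns covers both strands, and every match of 3 units also holds a match of 2. Of 35116 such windows, 155 (0.441%) held 3 units and 4067 (11.6%) held 2 units. The following windows, each on the strand of its gene and 5′ to 3′ with matches in capitals, show HSPA4L beside a cytosolic HSP90 gene and a stress-inducible HSP70 gene. HSPA4L is shown at chr4:127781546-127781795 and, before its second start, at chr4:127782072-127782321 (plus strand). HSP90AA1 is shown at chr14:102087045-102087294 (minus strand) and HSPA1A at chr6:31815293-31815542 (plus strand).
HSPA4L, first start: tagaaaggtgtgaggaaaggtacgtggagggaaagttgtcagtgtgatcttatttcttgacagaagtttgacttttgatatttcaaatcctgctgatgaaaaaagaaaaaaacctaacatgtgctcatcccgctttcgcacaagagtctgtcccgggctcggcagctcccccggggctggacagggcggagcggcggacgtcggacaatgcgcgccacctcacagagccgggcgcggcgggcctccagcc
HSPA4L, second start: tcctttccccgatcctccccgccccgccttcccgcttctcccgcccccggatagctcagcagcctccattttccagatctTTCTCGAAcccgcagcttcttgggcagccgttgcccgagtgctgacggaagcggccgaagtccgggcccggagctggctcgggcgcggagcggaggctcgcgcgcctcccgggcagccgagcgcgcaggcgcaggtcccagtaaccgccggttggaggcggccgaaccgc
HSP90AA1: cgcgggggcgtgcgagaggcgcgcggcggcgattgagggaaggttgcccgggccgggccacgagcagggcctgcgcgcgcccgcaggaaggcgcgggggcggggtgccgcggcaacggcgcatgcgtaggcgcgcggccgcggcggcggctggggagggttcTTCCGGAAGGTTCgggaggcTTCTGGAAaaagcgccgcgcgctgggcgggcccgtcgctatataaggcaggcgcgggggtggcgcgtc
HSPA1A: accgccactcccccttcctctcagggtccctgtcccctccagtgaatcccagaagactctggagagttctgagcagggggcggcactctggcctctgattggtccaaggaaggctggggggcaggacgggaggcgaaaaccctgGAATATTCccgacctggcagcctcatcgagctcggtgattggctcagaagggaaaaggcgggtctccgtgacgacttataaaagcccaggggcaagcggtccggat

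The first HSPA4L window held no match, the second held 1 match of 2 units that begins 170 bases before the start, and HSPA1A held 1 that begins 106 bases before the start. The HSP90AA1 window shown held 3 units beginning 88 bases before the start. The window before the other HSP90AA1 start (chr14:102139750-102139999) and that before the last HSPA4L start (chr4:127783273-127783522) held no match. HSPA8 held 3 units at a distance of 230 bases (GAAAGTTCCAGAA) and again at 55 bases (TTCTGGAAGGTTC). HSF1 was left out of these counts. Of the other 9 members, 2 held 3 units (HSPA8 and HSP90AA1). At least 2 units were held by 6, which adds HSPA4L, HSPA1A, HSPA1B and DNAJB1. Some members have more than 1 window, whereas the shares above are per window. Of the 14 windows of these members, 2 held 3 units and 6 held at least 2. No match was found in the windows of HSPA4, HSPH1 and HSPA9. A match is a description of letters in these windows only, and binding was not measured.

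HSPA4L (ENSG00000164070, chromosome 4, 127781821 to 127840733, plus strand, GRCh38), an HSP110 protein known from mouse testis and from osmotic stress in mouse kidney cells, was 1.51-fold higher in CREBBP+/- libraries. It had 38.7, 42.4, 28.7, 38.9 and 40.3 CPM in Het_6, Het_7, Het_8, Het_9 and Het_10, against 22.8, 24.3, 29.0, 23.8 and 25.2 CPM in WT_1 to WT_5. Of the 5 CREBBP+/- libraries, 4 stood above each CREBBP+/+ library, and the groups overlapped only because Het_8 lay just under WT_3. In bulk RNA, more cells with the transcript and more transcript per cell cannot be told apart. The means were 37.8 ± 5.31 CPM in CREBBP+/- clones, against 25.0 ± 2.37 CPM in CREBBP+/+ clones (SD, n = 5 each). The fitted log2 fold change was 0.59 (SE 0.12), which takes no account of the choice of HSPA4L on this contrast. The values rest on 423 to 907 counts in CREBBP+/- and 370 to 642 counts in CREBBP+/+ libraries. Leaving out Het_8 gave 0.68 and leaving out Het_7 gave 0.55, which were the extremes over the 10 libraries left out in turn.

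**Figure D1:**
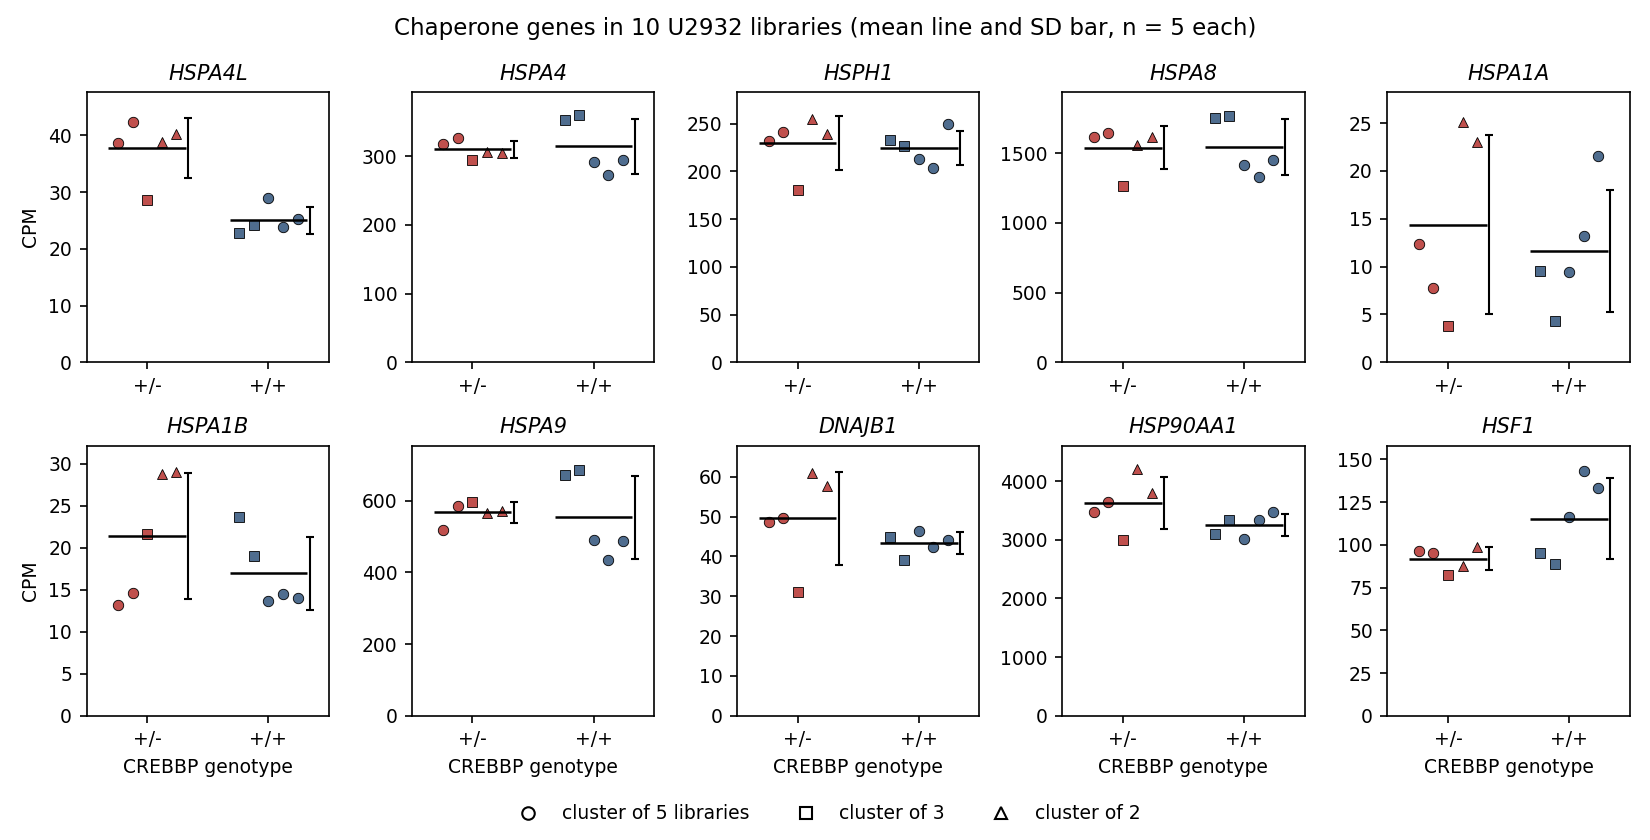
CPM of each of the 10 genes in the 5 CREBBP+/- libraries (left, red) and the 5 CREBBP+/+ libraries (right, blue), with the mean as a line and 1 SD as a bar, and marker shapes for the 3 library clusters. Each axis starts at 0; HSPA4L is the gene chosen for its higher level, and the groups overlap in each of the 10 genes, in HSPA4L by Het_8 alone.

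The other cytosolic HSP110 genes had means close to equal, HSPA4 with 310 ± 12.5 CPM in CREBBP+/- clones, against 314 ± 39.5 CPM in CREBBP+/+ clones, and HSPH1 with 230 ± 28.6 CPM in CREBBP+/- clones, against 225 ± 17.8 CPM in CREBBP+/+ clones (SD, n = 5 each). HSPA4 (ENSG00000170606, chromosome 5, 133052013 to 133106449, plus strand), the abundant cytosolic HSP110, had 317, 327, 294, 306 and 305 CPM in Het_6 to Het_10, against 353, 360, 291, 272 and 294 CPM in WT_1 to WT_5. WT_1 and WT_2 were the highest and the other CREBBP+/+ libraries the lowest, so that each CREBBP+/- library lay inside the CREBBP+/+ range. The log2 fold change was -0.019 (SE 0.09, 95% interval -0.23 to 0.19, edgeR quasi-likelihood test, adjusted p = 0.990). HSPH1 (ENSG00000120694, chromosome 13, 31134973 to 31162388, minus strand), the heat-inducible HSP110, had 232, 242, 181, 255 and 239 CPM in Het_6 to Het_10, against 233, 227, 213, 203 and 249 CPM in WT_1 to WT_5. Het_8 was the lowest of the 10 libraries and Het_9 the highest, and the log2 fold change was 0.030 (SE 0.10, 95% interval -0.20 to 0.26, edgeR quasi-likelihood test, adjusted p = 0.988).

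Per kilobase of exon, HSPA4L was the least abundant of the 3 cytosolic HSP110 genes. Its level was 3.30 ± 0.46 CPM per kilobase in CREBBP+/- and 2.19 ± 0.21 in CREBBP+/+ libraries (mean ± SD, n = 5 each). HSPA4 had 61.0 ± 2.47 and HSPH1 27.4 ± 3.41 CPM per kilobase in CREBBP+/- libraries, against 61.9 ± 7.78 for HSPA4 and 26.8 ± 2.13 for HSPH1 in CREBBP+/+ libraries. HSPA4L was therefore a small share of the summed level of these 3 genes. That share was 3.61%, 3.83%, 3.06%, 3.61% and 3.82% in Het_6 to Het_10, against 2.01%, 2.12%, 2.97%, 2.60% and 2.45% in WT_1 to WT_5. The lowest CREBBP+/- share, in Het_8, lay above the highest CREBBP+/+ share, in WT_3, and since the share contains the gene selected on this contrast it was not tested.

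HSPA8 (ENSG00000109971, chromosome 11, 123057489 to 123063230, minus strand), the constitutive HSP70 of the cytosol, had nearly equal means of 1540 ± 157 CPM in CREBBP+/- clones, against 1543 ± 203 CPM in CREBBP+/+ clones (SD, n = 5 each). It had 1615, 1642, 1265, 1558 and 1618 CPM in Het_6 to Het_10, against 1750, 1769, 1416, 1328 and 1450 CPM in WT_1 to WT_5. WT_1 and WT_2 were the highest and Het_8 the lowest, and the log2 fold change was -0.0027 (SE 0.12, 95% interval -0.26 to 0.25, edgeR quasi-likelihood test, adjusted p = 0.998). HSPA9 (ENSG00000113013, chromosome 5, 138553756 to 138575675, minus strand), the HSP70 of the mitochondrial matrix, averaged 567 ± 30.0 CPM in CREBBP+/- clones, against 554 ± 115 CPM in CREBBP+/+ clones (SD, n = 5 each). The CREBBP+/+ spread came from WT_1 and WT_2, at 671 and 685 CPM, against 435 to 490 CPM in WT_3, WT_4 and WT_5, while CREBBP+/- libraries stayed within 519 to 598 CPM. Its log2 fold change was 0.034 (SE 0.13, 95% interval -0.26 to 0.33, edgeR quasi-likelihood test, adjusted p = 0.988).

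HSPA1A and HSPA1B, the stress-inducible HSP70 genes, encode almost the same protein from neighbouring loci of chromosome 6 (HSPA1A, ENSG00000204389, 31815543 to 31817946; HSPA1B, ENSG00000204388, 31827738 to 31830254; both on the plus strand). Reads of one can be assigned to the other or dropped, so each single value is uncertain. HSPA1A had 12.4, 7.77, 3.76, 25.1 and 23.0 CPM in Het_6 to Het_10, against 9.55, 4.31, 9.38, 13.2 and 21.5 CPM in WT_1 to WT_5. HSPA1B had 13.2, 14.6, 21.7, 28.8 and 29.0 CPM in Het_6 to Het_10, against 23.7, 19.0, 13.7, 14.5 and 14.1 CPM in WT_1 to WT_5. For both genes Het_9 and Het_10 were the highest of the 10 libraries, and no other CREBBP+/- library exceeded the CREBBP+/+ maximum. The sum of both was 25.6, 22.4, 25.4, 53.8 and 51.9 CPM in Het_6 to Het_10, against 33.3, 23.4, 23.0, 27.7 and 35.6 CPM in WT_1 to WT_5. Neither passed the test (edgeR quasi-likelihood test, adjusted p = 0.988 for each), with a log2 fold change of 0.31 (SE 0.53) for HSPA1A and 0.33 (SE 0.26) for HSPA1B. Without Het_9 and Het_10 these were -0.54 and -0.039.

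DNAJB1 is a partner of HSP70, and HSP90AA1 is the inducible HSP90. Of the other 9 genes, they lay nearest to HSPA4L over the libraries by the distance described below. DNAJB1 (ENSG00000132002, chromosome 19, 14514769 to 14560391, minus strand) had 48.7, 49.6, 31.0, 61.0 and 57.8 CPM in Het_6 to Het_10, against 45.0, 39.2, 46.4, 42.4 and 44.2 CPM in WT_1 to WT_5. As for HSPA4L, 4 CREBBP+/- libraries stood above each CREBBP+/+ library, but Het_8 lay below all of them. The log2 fold change of 0.19 (SE 0.16, 95% interval -0.16 to 0.55) did not pass the edgeR quasi-likelihood test (adjusted p = 0.988), and it was -0.0072 without Het_9 and Het_10. HSP90AA1 (ENSG00000080824, chromosome 14, 102080742 to 102139699, minus strand) had 3466, 3649, 2989, 4204 and 3806 CPM in Het_6 to Het_10, against 3106, 3330, 3017, 3346 and 3475 CPM in WT_1 to WT_5. Here 3 CREBBP+/- libraries were above the CREBBP+/+ maximum and Het_8 was below the minimum, and the log2 fold change was 0.15 (SE 0.10, 95% interval -0.08 to 0.38, edgeR quasi-likelihood test, adjusted p = 0.988). Without Het_9 and Het_10 it was 0.052. Per kilobase HSP90AA1 was the most abundant of the 10 genes, at 711 ± 87.7 CPM in CREBBP+/- clones, against 639 ± 36.8 CPM in CREBBP+/+ clones (SD, n = 5 each).

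HSF1 (ENSG00000185122, chromosome 8, 144291591 to 144314720, plus strand), the factor that turns on the heat shock response, had a lower mean in CREBBP+/- libraries. It had 96.3, 95.3, 82.5, 87.5 and 98.7 CPM in Het_6 to Het_10, against 95.3, 88.7, 116, 143 and 133 CPM in WT_1 to WT_5. WT_3, WT_4 and WT_5 were the high libraries, while WT_1 and WT_2 lay inside the CREBBP+/- range. The log2 fold change was -0.33 (SE 0.14, 95% interval -0.63 to -0.02), with an unadjusted p of 0.037 that did not hold over all genes (edgeR quasi-likelihood test, adjusted p = 0.977). The median over 64 genes near it on the chromosome was -0.30. HSF1 is controlled mostly at the level of its protein, which was not measured.

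**Figure D2:**
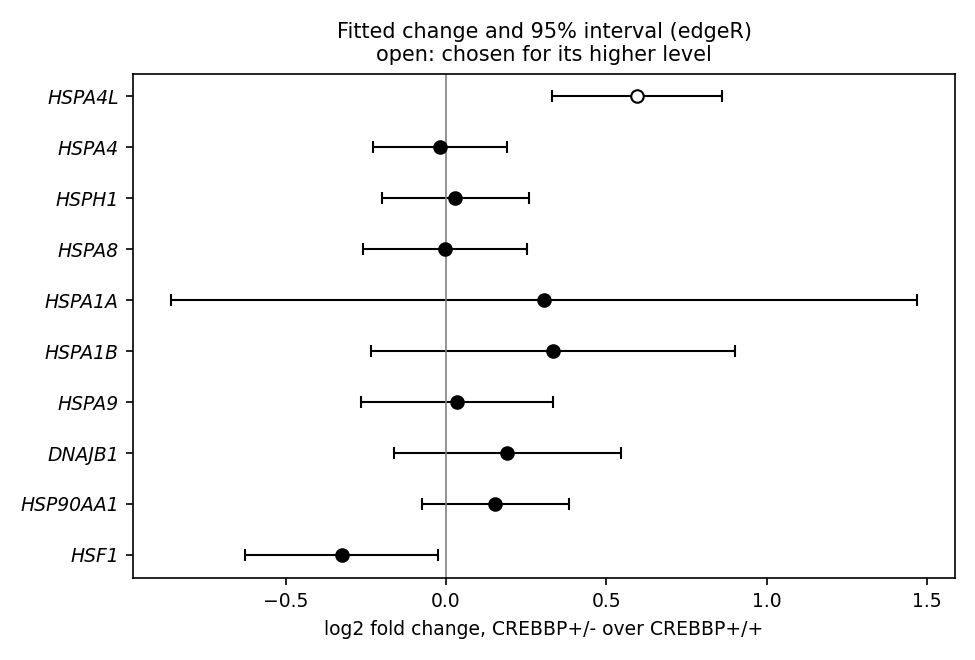
Log2 fold change of CREBBP+/- over CREBBP+/+ for each of the 10 genes (points) with its 95% interval from the edgeR fit (bars). The open point is HSPA4L at 0.59, chosen for its higher level, and its bar takes no account of that choice and is no test. Of the other 9 intervals, all but that of HSF1 (-0.63 to -0.02) span 0.

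All 10 genes passed the filter on low counts. The edgeR test called 0 of the 9 other genes at an adjusted p under 0.05, beside 0 of 11961 genes tested (0%). At an unadjusted p under 0.05 it was 1 of 9 (HSF1), beside 596 of all genes (4.98%), and DESeq2 called 0 of the 9 (smallest adjusted p = 0.652), beside 34 of 13071 genes with an adjusted p (0.26%). Log2 fold changes were above 0 for 6 of the 9, beside 47.6% of all genes. None of the 10 genes had groups without overlap, beside 1.02% of all genes. A test of HSPA4L against its relatives was not run, since HSPA4L was selected on this contrast.

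Within library clusters, HSPA4L kept its direction. Since it was chosen for its higher level in these same libraries, that is a description only. The mean log2 CPM differed by 0.64 between Het_6 with Het_7 and WT_3 to WT_5, and by 0.28 between Het_8 and WT_1 with WT_2. For HSF1 the same differences were -0.44 and -0.16. For HSPA4 (0.17 and -0.28), HSPH1 (0.10 and -0.35), HSPA8 (0.22 and -0.48), HSPA9 (0.23 and -0.18), DNAJB1 (0.15 and -0.44) and HSP90AA1 (0.12 and -0.11) they took opposite signs. In the smaller cluster Het_8 was thus below the mean of WT_1 and WT_2 in all 6 of these genes. HSPA1A was lower in CREBBP+/- libraries of both clusters (-0.50 and -0.76), while HSPA1B was close to 0 (-0.016 and 0.028). These are values of 1 to 3 libraries a group, with no test, and Het_9 with Het_10 has no CREBBP+/+ library to be set against.

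A list of 31 genes of the heat shock response was followed by library, of which 26 other than HSPA4L passed the filter. Of these, 17, 17, 6, 16 and 15 stood above their own mean over the 10 libraries in Het_6 to Het_10, against 15, 18, 10, 8 and 10 in WT_1 to WT_5. Het_8 thus had the fewest and WT_2 the most. The median of the centred log2 CPM was 0.034, 0.050, -0.17, 0.077 and 0.047 in Het_6 to Het_10, against 0.075, 0.084, -0.081, -0.059 and -0.035 in WT_1 to WT_5. The median log2 fold change over the 26 was 0.0064, beside -0.011 over all genes tested, and 14 of them were above 0. The edgeR test called 0 of them, with 0 at an unadjusted p under 0.05, and DESeq2 called 0 as well. For this list and those that follow, the shares over all genes were 0%, 4.98% and 0.26% for these counts. For log2 fold changes above 0 the share was 47.6%.

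**Figure D3:**
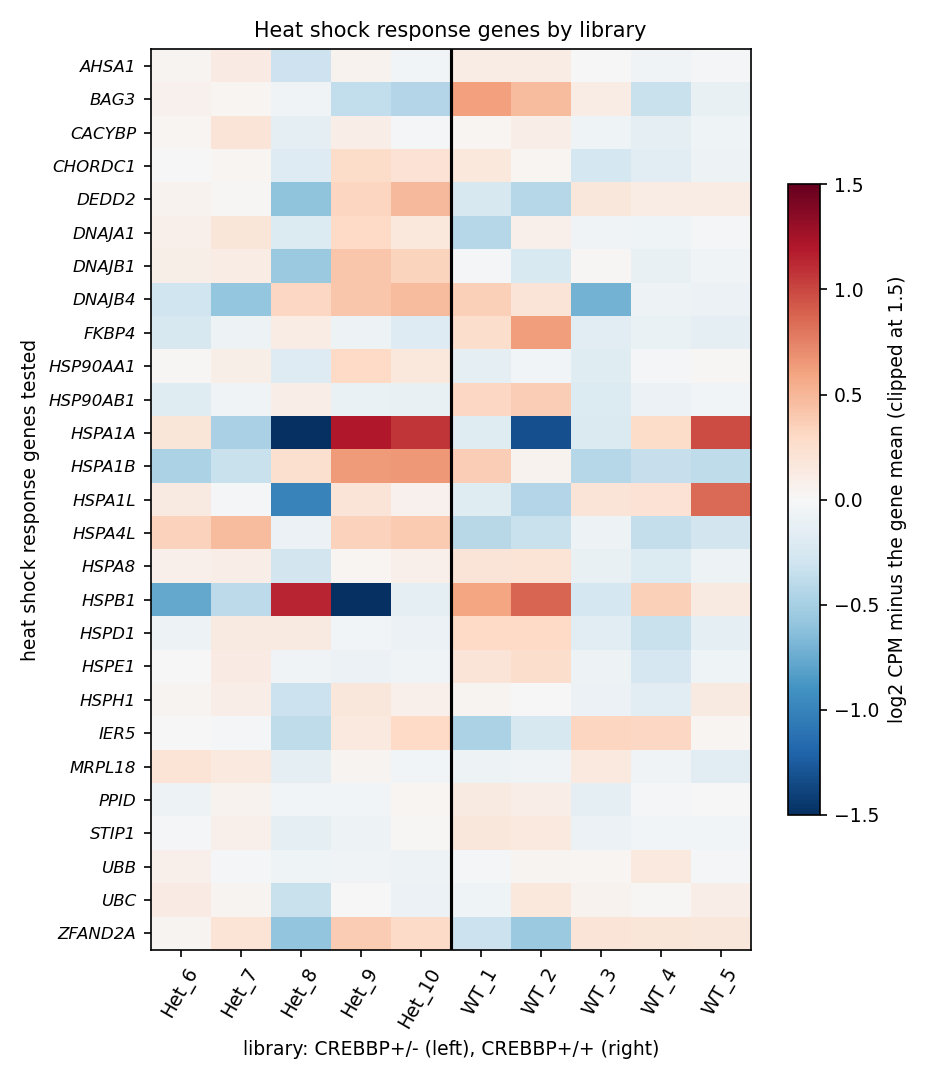
Log2 CPM of each tested gene of the heat shock response minus its mean over the 10 libraries (colour, clipped at 1.5), with the 5 CREBBP+/- libraries left of the line and the 5 CREBBP+/+ libraries right of it. The HSPA4L row is red in 4 CREBBP+/- libraries, whereas most other rows vary by library without a split at the line, and Het_8 is blue in 20 of 26 rows other than HSPA4L.

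Some further genes of the heat shock response were examined singly. DNAJA1, a J-domain gene, averaged 415 ± 52.1 CPM in CREBBP+/- clones, against 359 ± 44.6 CPM in CREBBP+/+ clones (SD, n = 5 each). Its log2 fold change was 0.21 (SE 0.12, edgeR quasi-likelihood test, adjusted p = 0.988), and 3 CREBBP+/- libraries stood above each CREBBP+/+ library. The DNAJA1 value was 0.10 to 0.28 over the alternatives, and 0.12 without Het_9 and Het_10. FKBP4, an HSP90 cochaperone, had -0.22 (SE 0.16). HSPA6, an HSP70 that is nearly silent in unstressed cells, had at most 8 counts in a library and was not tested, with means of 0.238 CPM in CREBBP+/- clones, against 0.283 CPM in CREBBP+/+ clones. BAG3, a nucleotide exchange factor that links HSP70 to autophagy, averaged 7.79 ± 1.26 CPM in CREBBP+/- clones, against 9.86 ± 2.71 CPM in CREBBP+/+ clones (SD, n = 5 each; log2 fold change -0.34, SE 0.21). Among small heat shock proteins, which hold unfolded proteins without ATP, 1 of 10 passed the filter. That gene, HSPB1, had 2.77, 3.62, 10.7, 1.56 and 4.33 CPM in Het_6 to Het_10, against 7.27, 8.84, 3.97, 6.15 and 5.26 CPM in WT_1 to WT_5, and its highest library was Het_8. Its log2 fold change was -0.45 (SE 0.45), and it ranged from -1.02 to -0.15 over the alternatives. CRYAB, CRYAA, HSPB8 and HSPB3 had 0 counts in all 10 libraries. HSPE1, the mitochondrial cochaperonin, had a log2 fold change of -0.035 (SE 0.11).

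In the HSP70 and HSP110 family, 7 of 12 tested genes other than HSPA4L were above 0 and the median log2 fold change was 0.032. HSPA2, a testis-enriched HSP70, had 0.40 (SE 0.39) and HSPA5, the HSP70 of the endoplasmic reticulum known as BiP, had 0.10 (SE 0.15). HSPA1L and HSPA13 had -0.28 (SE 0.32) and -0.13 (SE 0.12). Each of these 4 overlapped between groups. HSPA2 had 0.18 without Het_9, 0.68 without WT_3 and 0.054 without Het_9 and Het_10, and HSPA1L had -0.043 without WT_5. The edgeR test called 0 of the 12, 0 were under an unadjusted p of 0.05, and DESeq2 called 0. HSPA12A and HSPA12B, with at most 2 and 0 counts in a library, were not tested.

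Of the 36 J-domain genes, 17 were above 0 and the median was -0.0013, with 0 called and 2 under an unadjusted p of 0.05 (edgeR). DNAJC24, a J-domain protein of the diphthamide pathway, averaged 13.3 ± 0.87 CPM in CREBBP+/- clones, against 10.7 ± 1.00 CPM in CREBBP+/+ clones (SD, n = 5 each). Its groups did not overlap, and its log2 fold change of 0.32 (SE 0.11) had an adjusted p of 0.950 (edgeR quasi-likelihood test). DNAJA4, a type I J-domain protein, had 63.5, 43.6, 69.6, 160 and 102 CPM in Het_6 to Het_10, against 59.0, 57.0, 59.2, 34.6 and 68.7 CPM in WT_1 to WT_5. Its fitted value of 0.65 (SE 0.32) was the only one above that of HSPA4L among the listed genes, and Het_9 was its highest library. The value was 0.32 without Het_9, 0.084 in a fit with cluster terms, and 0.082 without Het_9 and Het_10. DNAJC14 and DNAJC10 had -0.22 (SE 0.09) and 0.31 (SE 0.16), and DNAJC10 had 0.069 without Het_9 and Het_10.

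Partners of HSP70 and the HSP90 system were counted next. Of 14 nucleotide exchange factors and other HSP70 partners, 7 were above 0 and the median was -0.0038. BAG6, which guards hydrophobic proteins in the cytosol, averaged 283 ± 21.7 CPM in CREBBP+/- clones, against 333 ± 27.7 CPM in CREBBP+/+ clones (log2 fold change -0.23, SE 0.09, edgeR adjusted p = 0.977, SD over n = 5 each), while BAG5 had 0.12 (SE 0.07) and the ubiquitin ligase STUB1 had -0.16 (SE 0.09). NAA38, which is counted among the 14 although it is a subunit of an N-terminal acetyltransferase, had -0.23 (SE 0.12). Of 22 HSP90 genes and cochaperones, 7 were above 0 and the median was -0.055. SUGT1, an HSP90 cochaperone of kinetochore assembly, had 94.8, 93.2, 68.0, 145 and 131 CPM in Het_6 to Het_10, against 66.9, 72.4, 82.1, 78.7 and 81.0 CPM in WT_1 to WT_5. As for HSPA4L, 4 CREBBP+/- libraries of SUGT1 stood above each CREBBP+/+ library, and Het_8 lay inside the CREBBP+/+ range. In DNAJB1, by contrast, Het_8 lay below that range. The log2 fold change of SUGT1 was 0.48 (SE 0.18, edgeR quasi-likelihood test, adjusted p = 0.977). The SUGT1 value was 0.13 in a fit with cluster terms and 0.17 without Het_9 and Het_10. HSP90AB1, the constitutive HSP90, had -0.15 (SE 0.13) and HSP90B1, the HSP90 of the endoplasmic reticulum, had -0.30 (SE 0.19). AHSA2P had 0.22 (SE 0.14). In each of these lists the edgeR test called 0 genes, with 1 under an unadjusted p of 0.05, and DESeq2 called 0.

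**Figure D4:**
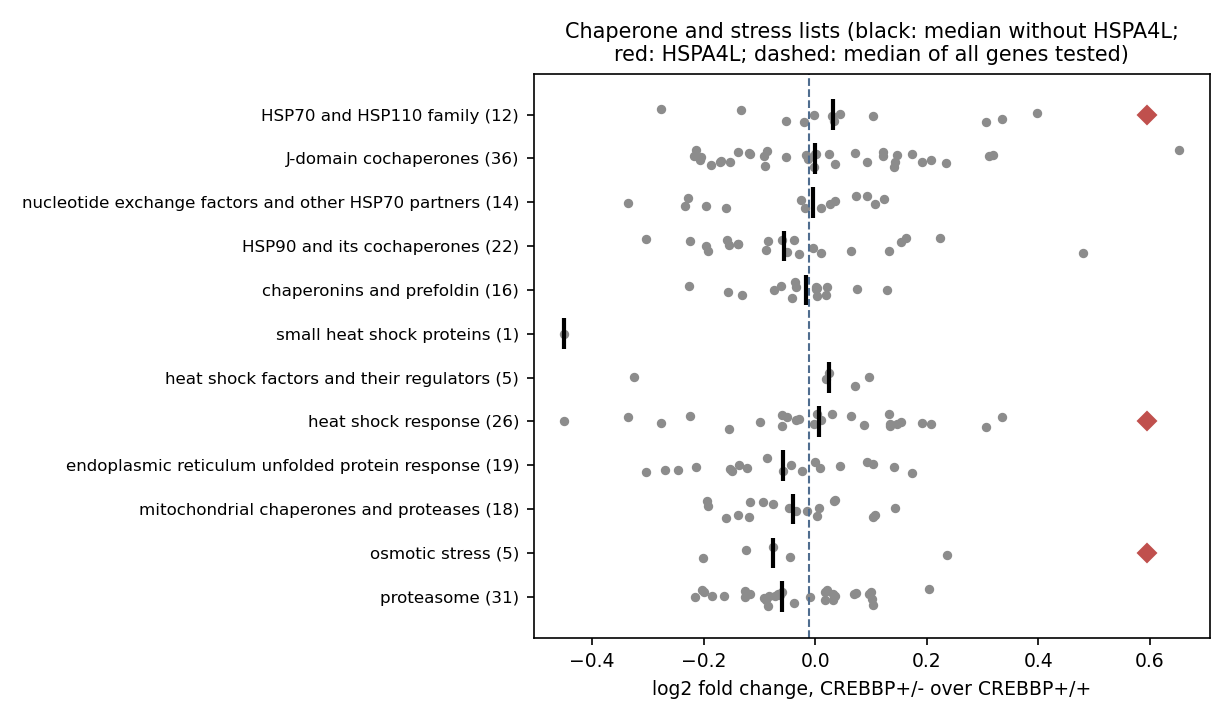
Log2 fold change of CREBBP+/- over CREBBP+/+ for each tested gene (grey points) of 12 chaperone and stress lists, with the median without HSPA4L (black line), HSPA4L (red diamond) and the median of all genes tested (dashed line, -0.011). The number of tested genes other than HSPA4L stands in brackets; list medians lie between -0.075 and 0.032 apart from the list with 1 tested gene, HSPB1, at -0.45.

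Other machines of folding and protein turnover gave medians near that of all genes. For 16 chaperonin and prefoldin genes the median was -0.017, with 8 above 0. Of their members with the smallest p, the prefoldin subunit PFDN6 had 0.13 (SE 0.08), the chaperonin subunit CCT5 -0.23 (SE 0.22), PFDN5 -0.13 (SE 0.15) and PFDN2 -0.073 (SE 0.09). For 18 mitochondrial chaperones and proteases the median was -0.040, with 7 above 0, and the inner membrane protease YME1L1 had 0.10 (SE 0.07), the exchange factor GRPEL2 0.11 (SE 0.12), the matrix protease CLPP -0.19 (SE 0.14) and the mitochondrial HSP90 TRAP1 -0.19 (SE 0.19). Neither list had a gene under an unadjusted p of 0.05 in the edgeR test. For 19 genes of the unfolded protein response of the endoplasmic reticulum the median was -0.057, with 6 above 0 and 1 under an unadjusted p of 0.05. That gene was PDIA4, a disulfide isomerase, with -0.27 (SE 0.10), beside EDEM1 at -0.25 (SE 0.17) and DNAJB9 at -0.21 (SE 0.18). For 31 proteasome genes the median was -0.060, with 13 above 0 and 1, PSMB4 at -0.19 (SE 0.08), under an unadjusted p of 0.05. PSMA5, PSMB3 and PSMD13 had -0.22 (SE 0.10), -0.20 (SE 0.14) and -0.16 (SE 0.11).

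Since HSPA4L is known in mouse as an osmotic stress protein, genes of that response were listed. Of the 5 others tested, 1 was above 0 and the median was -0.075. NFAT5, the transcription factor of osmotic stress, averaged 90.6 ± 9.70 CPM in CREBBP+/- clones, against 95.4 ± 19.3 CPM in CREBBP+/+ clones (SD, n = 5 each). Its targets AKR1B1, SLC5A3 and SLC6A6 had log2 fold changes of -0.12 (SE 0.10), -0.20 (SE 0.21) and 0.24 (SE 0.17). The edgeR test called 0 of the 5, with 0 under an unadjusted p of 0.05, and DESeq2 called 0. Other heat shock factors lay close to 0 in the edgeR fit, with HSF2 at 0.025 (SE 0.10), HSF4 at 0.020 (SE 0.38), HSF5 at 0.071 (SE 0.46) and the regulator HSBP1 at 0.096 (SE 0.20). HSF4 and HSF5 were below 3 CPM on average. The signs of HSF4, HSF5 and HSBP1 turned without Het_9 and Het_10 (-0.45, -0.72 and -0.20). Over the 12 lists together, edgeR called 0 of 169 tested genes other than HSPA4L (smallest adjusted p = 0.950), beside 0 of all 11961. An unadjusted p under 0.05 was found for 7 of the 169, beside 596 of all genes (4.98%, edgeR). DESeq2 called 0 of the 169, beside 0.26% of all genes. The edgeR test did not call CREBBP either (adjusted p = 0.395), so 0 called does not set these lists apart.

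Likeness to HSPA4L over the 10 libraries was measured on log2 CPM after each gene was centred on its own mean. The measure was the root mean square difference, so that small values mean close centred values. It was not scaled for spread, so a gene that varied little between libraries can rank fairly near without sharing the pattern. Among 10029 genes with a mean of at least 5 CPM the median distance from HSPA4L was 0.418. The nearest were DSG2 (0.145), PROSER1 (0.151), TCEAL1 (0.155), ENSG00000215271 (0.158), ZNF493 (0.160) and MSANTD4 (0.163). None of them was in the chaperone lists. Those lists hold only 169 tested genes other than HSPA4L, beside 11961 genes tested, so their absence here was likely for any pattern. DSG2, a desmosomal cadherin, had 116, 124, 97.6, 123 and 122 CPM in Het_6 to Het_10, against 65.8, 77.9, 112, 88.6 and 92.4 CPM in WT_1 to WT_5. Like HSPA4L it was lowest in Het_8 among CREBBP+/- libraries and highest in WT_3 among CREBBP+/+ libraries. Of the other 9 genes described here, HSP90AA1 (0.263, rank 382) and DNAJB1 (0.266, rank 409) were nearest. These ranks lie within the nearest 3.81% and 4.08% of the 10029 genes. HSPH1 (0.310, rank 1235), HSPA8 (0.343, rank 2283), HSPA4 (0.360, rank 2939) and HSPA9 (0.390, rank 4086) followed. HSF1 (0.492), HSPA1B (0.496) and HSPA1A (0.844) were farther than the median gene. These distances are a description, since the 10 libraries share their clusters and the choice of HSPA4L.

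Genes around HSPA4L were examined to see whether its level was shared by its neighbourhood. Before its start, SLC25A31, INTU and FAT4 had 0 counts in all 10 libraries. After it, PLK4, a kinase of centriole duplication, averaged 58.8 ± 3.21 CPM in CREBBP+/- clones, against 60.4 ± 6.11 CPM in CREBBP+/+ clones, and MFSD8, a lysosomal membrane protein, 11.9 ± 2.99 CPM in CREBBP+/- clones, against 10.4 ± 1.77 CPM in CREBBP+/+ clones (SD, n = 5 each). ABHD18 averaged 23.7 ± 1.17 CPM in CREBBP+/- clones, against 20.8 ± 1.76 CPM in CREBBP+/+ clones (log2 fold change 0.18, SE 0.09, edgeR quasi-likelihood test, adjusted p = 0.977, n = 5 each). Over the 8 other tested genes within 2 Mb the median log2 fold change was 0.027, and 0 of them reached the HSPA4L value. All 8 start after HSPA4L, so the stretch before it held no tested gene. Since HSPA4L was selected for its higher level, its place above them is a description only.

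HSF1 stood among genes with similar values. Of 64 other tested genes within 2 Mb of its start, 59 were below 0, and their median log2 fold change was -0.30 beside -0.33 for HSF1. By library, the median centred log2 CPM of these neighbours was -0.097, -0.13, -0.079, -0.28 and -0.12 in Het_6 to Het_10, against -0.019, -0.15, 0.093, 0.46 and 0.28 in WT_1 to WT_5. HSF1 itself had -0.084, -0.098, -0.31, -0.22 and -0.048 in Het_6 to Het_10, against -0.098, -0.20, 0.19, 0.49 and 0.38 in WT_1 to WT_5. HSF1 and its neighbours were thus both highest in WT_4, then WT_5, then WT_3. Copy number was not measured, and the part of the neighbourhood in the HSF1 value was not tested.

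**Figure D5:**
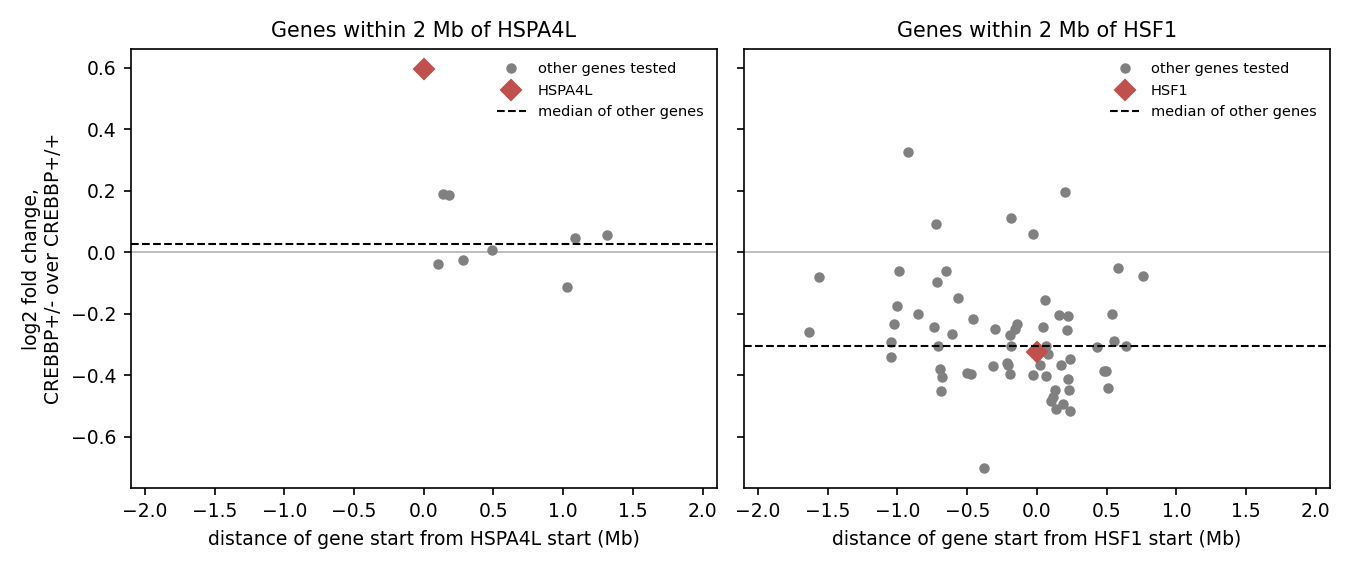
Log2 fold change of CREBBP+/- over CREBBP+/+ for tested genes within 2 Mb of HSPA4L (left) and of HSF1 (right) against the distance of their starts, with the median of the other genes dashed. HSPA4L at 0.59, chosen for its higher level, lies above its 8 neighbours, all of which start after it and whose median is 0.027. HSF1 at -0.33 lies close to the median of its 64 neighbours, -0.30.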

How the data were processed

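The table deposited by the authors holds raw counts of reads per gene, 1 column per library, in which 2541 of 2541 values from 10000 upward carry 4 significant digits. FastQC, STAR, featureCounts, DESeq2 and GRCh38 are named in the submitters' processing notes. With counting options, annotation and strand use not given in the sources used here, reads of overlapping, antisense or near-identical genes may be split between them. Symbols were matched for 20804 of 21174 identifiers from GENCODE and RefSeq tables; coordinates are those of GENCODE on GRCh38, and promoter windows those of RefSeq.

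From the counts, edgeR 4.0.16 (R 4.3.3; filterByExpr with a minimum count of 10 and total of 15, TMM, robust quasi-likelihood F-test, two-sided) was fitted to all 11961 genes passing the filter, with Benjamini-Hochberg adjustment over them, a threshold of 0.05 and no covariate. Log2 CPM used a prior count of 2, and clusters came from average linkage on it without the members and lists. The tree was cut at a set number of 3 clusters. The procedure was tested on simulated data. Alternatives were DESeq2 1.42.0, limma-voom (limma 3.58.1), other scaling factors and filters, the clusters as a covariate, leaving out Het_9 with Het_10, and leaving out each library. Het_9 and Het_10 form a cluster of their own, so the fit with clusters takes its genotype difference from the other libraries. It is therefore close to the fit without Het_9 and Het_10, and the agreement of these fits is not independent. The closest pair of libraries, Het_9 and Het_10, differed by more than sampling noise (chi-square per gene 7.77).

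The members and lists were chosen with earlier results of these data known. Besides the members and CREBBP, genes named are up to 4 of each list with the smallest p, 4 genes of the heat shock response, the 3 nearest measured neighbours of HSPA4L on each side and the 6 genes most like it; the single-gene result of 1 list member is not reported here. The genes around members, and the windows used for them, were examined after values had been seen.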

Additional observations from a re-analysis of the deposited data

Results flagged for a closer look

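In 44 groups of 5 values (each gene's log2 CPM, or the mean log2 CPM of a list, in 1 genotype), the highest and lowest libraries were compared with the rest of their group by Dixon's gap, and 5 stood apart. Chance singles out about 1 in 20 such groups. Of the 5, 3 were Het_8 as the lowest CREBBP+/- library: HSPA4L at a log2 CPM of 4.85 (next lowest 5.28), HSPH1 at 7.50 (next 7.86) and HSPA8 at 10.3 (next 10.6). Het_9 was the highest CREBBP+/- library for the mean of the J-domain list, at 5.33 (next 5.25). WT_2 was the highest CREBBP+/+ library for the mean of the proteasome list, at 7.34 (next 7.23).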

How the results depend on the processing

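Each fold change was recomputed under up to 18 alternatives (HSF5 under 17), the medians near members under 2, and the promoter share and the HSPA1A plus HSPA1B ratio under 1. Of 59 fold changes, 41 kept their sign in all of these, and 13 of those 41 also stayed within 1.5 times their size, HSPA4L, HSF1 and CREBBP among them. HSPA4L, chosen on this contrast, stayed between 0.52 and 0.68, HSP90AA1 between 0.039 and 0.22, and HSF1 between -0.41 and -0.23. No alternative called another member (smallest adjusted p = 0.232, edgeR with the clusters as a covariate). The count of genes called was 34 with DESeq2 and 0 to 1 leaving out a library (1 without Het_6). With the clusters as a covariate, and then without Het_9 and Het_10, the log2 fold changes were -0.058 and -0.041 for HSPH1, -0.64 and -0.54 for HSPA1A, -0.0015 and -0.039 for HSPA1B, -0.050 and -0.0072 for DNAJB1, -0.12 and -0.084 for HSPA5, 0.039 and 0.074 for CCT5, -0.16 and -0.20 for HSBP1, -0.71 and -0.72 for HSF5, -0.45 and -0.45 for HSF4, -0.053 and -0.049 for SLC6A6, and 0.033 and 0.0091 for HSPE1. HSPA4 was 0.016 with the clusters and 0.0045 with upper-quartile factors, HSPA8 was 0.020 with upper-quartile factors, and HSF5 was -0.19 with limma-voom. Leaving out each library, ranges that crossed 0 were -0.066 to 0.033 for HSPA4, -0.0097 to 0.10 for HSPH1, -0.052 to 0.060 for HSPA8, -0.041 to 0.12 for HSPA9, -0.19 to 0.023 for PFDN5, -0.038 to 0.19 for HSBP1, -0.045 to 0.058 for HSF2, -0.23 to 0.32 for HSF5, -0.24 to 0.27 for HSF4, -0.15 to 0.036 for NFAT5, -0.096 to 0.030 for HSPE1 and -0.077 to 0.012 for PLK4. The causes were not tested. CREBBP passed the threshold with DESeq2 (log2 fold change -0.72, adjusted p = 0.000107). The number of genes under an unadjusted p of 0.05 was 1516 with the clusters, 341 without Het_9 and Het_10, and 327 (without Het_9) to 1124 (without Het_8) leaving out a library. No paired analysis was possible because the CREBBP+/- columns carry numbers that no CREBBP+/+ column and no labelled clone carries. Counts of HSPA1A were as low as 69 in a CREBBP+/- library and 79 in a CREBBP+/+ library, which limits its precision, and HSPA6 was too low to test.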

Other observations

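Of the 56 members and named list genes, 11 had Het_9 and Het_10 as their highest libraries. They include HSPA1A (25.1 and 23.0 CPM), HSPA1B (28.8 and 29.0 CPM), DNAJB1 (61.0 and 57.8 CPM), HSP90AA1 (4204 and 3806 CPM), DNAJA4 (160 and 102 CPM), DNAJC10 (208 and 182 CPM), SUGT1 (145 and 131 CPM) and HSPA5 (805 and 819 CPM). The others were HSBP1, HSF5 and SLC6A6. HSPA4L had 38.9 and 40.3 CPM there, inside the range of Het_6 and Het_7 (38.7 and 42.4 CPM). The same libraries were the lowest for 6 genes (DNAJC14, CCT5, BAG3, EDEM1, AKR1B1 and PSMD13), with BAG3 at 6.61 and 6.29 CPM. This grouping was made after values were seen, and no CREBBP+/+ library shares the cluster of Het_9 and Het_10. The share of all tested genes with the same highest or lowest libraries was not counted, so these counts do not set the named genes apart.

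WT_1 and WT_2 were the highest libraries for 14 of the 56, among them HSPA4 (353 and 360 CPM), HSPA8 (1750 and 1769 CPM), HSPA9 (671 and 685 CPM) and HSP90AB1 (3883 and 4035 CPM). Of these 4, Het_8, from the same cluster, came next for HSP90AB1 (3346 CPM) and HSPA9 (598 CPM) and was the lowest of the 10 libraries for HSPA8 (1265 CPM). Here too, the share over all genes tested was not counted.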
